A study of Drosophila simulans with 4 samples.

Results

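Food medium was compared in whole adult males of D. simulans, and the genes described here are the ones whose expression differed between a cornmeal medium and a natural fruit medium in the same direction in both of the populations sampled. They were chosen by a rule: a mean normalised count of at least 20 over the 4 libraries, and the same sign of natural minus cornmeal in Gotheron and in Mayotte. Of 15358 genes listed, 10825 reached that mean and 5638 of these also had the same sign in both populations. The rule itself uses the difference between the media, so that the agreement in direction is how the genes were picked and not a result. The smallest mean among the genes kept was 20.001, and the largest mean left out among genes of equal sign was 19.956.

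The flies were first generation sons of females caught in the wild in Gotheron (France) and in Mayotte, reared at 25°C. In Gotheron 1 library came from males raised on cornmeal medium, which the methods call axenic, and 1 from males raised on apple. In Mayotte 1 library came from males on cornmeal medium and 1 from males on banana. The natural medium was thus a different fruit in each population, and the males on cornmeal and on fruit descended from different wild females, so that the medium cannot be told apart from the sample of lines. Each library held RNA of 100 males, extracted as 4 pools of 25. The age at freezing was 5 days in the methods and 7 days in the sample labels. The methods state that bacteria contaminated the natural medium in Mayotte, and that immunity genes were left out of the population comparison for this reason. The comparison of media here left out no genes on this ground. The 15358 listed genes exceed the number the paper analysed by exactly the number of immunity genes it excluded. The excluded immunity genes thus appear to be among those listed. They could not be marked by identifier, so those that met the rule remain in the counts and ranks below.

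Diet reaches the fly transcriptome by several known routes. The gut adjusts its digestive enzymes to the sugars and proteins it receives, the fat body shifts between storing and burning nutrients, and microbes that live in food switch on the genes of immune defence. Plant compounds in fruit can also induce the enzymes that detoxify them. These routes are given as background only, since the deposited values carry gene identifiers without gene names. None of the 15358 identifiers matched the reference table, so no gene could be assigned with it to a pathway or to a tissue. Markers of male tissues could not be looked up, and genes are described here by identifier, level and response. The paper reports a D. melanogaster identifier for most genes and only a D. simulans one for the rest. These kinds were not separated here. Whole flies were sequenced, and more RNA per cell cannot be told apart from more cells of a type.

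The values are normalised counts, in which the reads of each gene were scaled by a factor of the library and all libraries share 1 total. Reads were recovered by taking the lowest value above 0 in each library as 1 read. By this measure the libraries held between 9829895 and 10365609 reads on the listed genes. The paper states a larger number of mapped reads per replicate, and the gap was not examined. At least 1 read was counted for 14257 to 14481 genes in each library. Depth by this measure therefore differed little. Over the 10825 genes the median difference of natural minus cornmeal was -0.03 in Gotheron and -0.03 in Mayotte, on the scale of log2(normalised count + 1), which is used for all log2 differences below and makes changes at low values look smaller than they are.

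Genes of equal direction divided unevenly between the media. On natural medium 2329 of them had the higher value in both populations, and on cornmeal medium 3309 did. The size of this imbalance depended on the scaling. The numbers were 2534 and 3049 under TMM scaling, and 2467 and 3157 with library totals taken without the 10 most abundant genes. The remaining 5187 genes of sufficient mean moved in opposite directions, 2673 with the higher value on natural medium in Gotheron and on cornmeal medium in Mayotte, and 2514 the other way round. The genes of equal sign were thus 52.1% of those examined. Most of these differences were small. The median absolute log2 difference was 0.25 in Gotheron and 0.19 in Mayotte for genes of equal sign, and 0.23 and 0.17 for the others. Across the 10825 genes the difference in Gotheron and the difference in Mayotte correlated weakly (Pearson's r = 0.0974, Spearman's rho = 0.0614), where genes are not independent and the 2 pairs share no library. The spread of the log2 difference across genes was wider in Gotheron (SD 0.44) than in Mayotte (SD 0.35). In 27.3% of the 10825 genes both natural libraries lay on one side of both cornmeal libraries, 1283 with the natural libraries above and 1668 with the cornmeal libraries above.

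**Figure D1:**
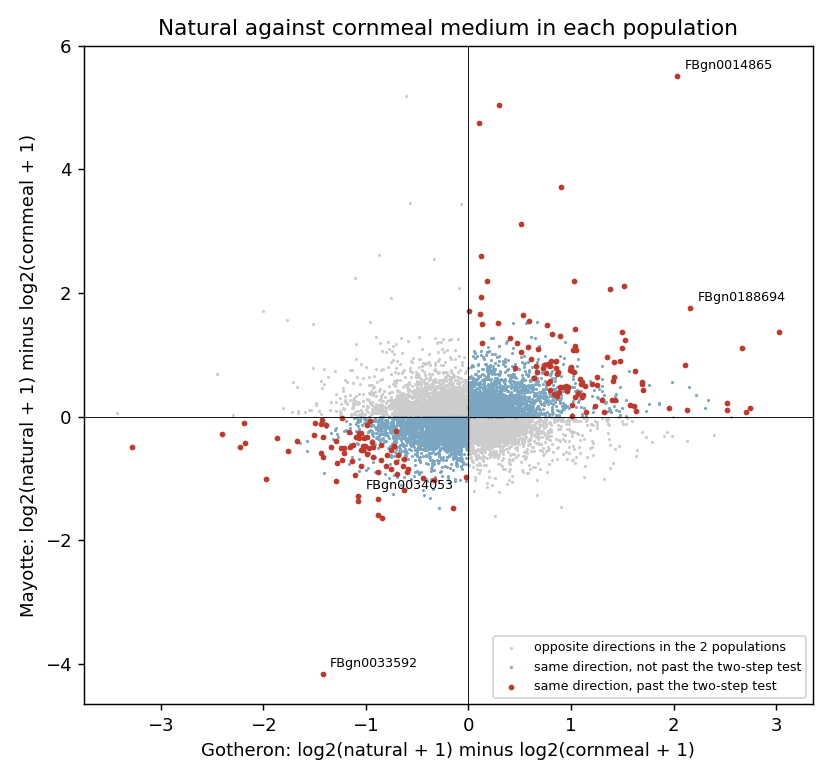
Difference of natural minus cornmeal medium in log2(normalised count + 1), in Gotheron on the x axis and in Mayotte on the y axis, for the 10825 genes whose mean reached 20. Each point is a gene. Blue and red points are the 5638 genes of equal direction, red ones the 181 past the two-step test, and grey points the 5187 of opposite direction. The cloud lies around 0 in both populations with no clear diagonal, and of the 4 genes given by identifier 3 stand far outside it.

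Large ratios were more often in the same direction in both populations than in opposite ones. At 1.5-fold or more in each population, 158 genes had the same direction, 96 with natural medium higher and 62 with cornmeal medium higher, and 89 genes had opposite directions. At 2-fold or more, 19 genes had the same direction, 14 of them higher on natural medium and 5 higher on cornmeal medium, and 6 had opposite directions. At 3-fold or more, 2 genes were higher on natural medium in both populations, none was higher on cornmeal medium in both, and 1 was higher on cornmeal medium in Gotheron and on natural medium in Mayotte. These are counts without a test. Among genes with a mean of at least 100 the counts at 2-fold were 6 and 2 of the same direction against 5 of opposite directions, so that the excess at that size lay mostly in genes of low count.

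**Figure D2:**
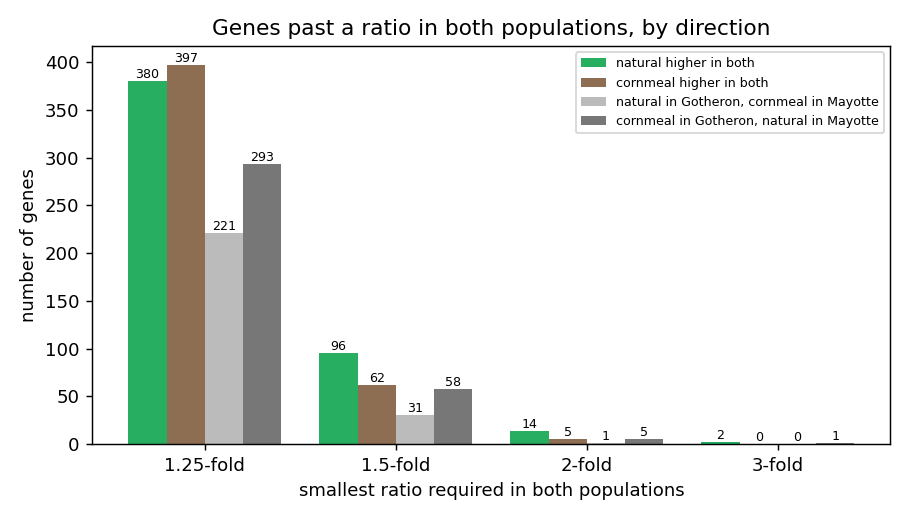
Number of genes (y axis) whose ratio between the media reached each of 4 sizes in both populations (x axis). Green and brown bars are genes with the same direction in both populations, higher on natural or on cornmeal medium, and grey bars are genes with opposite directions. At 2-fold the bars stand at 14 and 5 for equal directions and at 1 and 5 for opposite ones.

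Whether the mean difference between the media was large was tested in each of the 10825 genes. The spread it was set against came only in part from the disagreement of the 2 populations in that gene. Limma moderates it with a prior variance taken from all genes, which weighed as 6.57 degrees of freedom, so most of it was borrowed from other genes. With limma, where the population as a block takes up the difference in level between populations and leaves 1 residual degree of freedom, no gene passed a Benjamini-Hochberg adjusted threshold of 0.05, a background of 0%, and the smallest adjusted p was 0.080. At an unadjusted p under 0.05 there were 702 genes (6.48%), where a uniform distribution would give 541. Of these, 697 had the same direction in both populations, 357 higher on natural medium and 340 higher on cornmeal medium. The residual of this fit is the disagreement of the 2 populations, so genes of opposite direction can hardly pass. Equal direction, which 52.1% of the 10825 genes had, is thus largely built into the test and not read as a result. For any 1 gene, the smallest two-sided p that exact permutation of 2 against 2 libraries without the pairing allows is 0.333. Permutation within populations allows fewer arrangements, so its smallest p is larger. With limma 2 genes passed when genes down to a mean of 5 were kept, under TMM scaling, under quantile normalization and with a robust prior variance. They were the same genes each time, FBgn0188694 and the third of the genes higher on natural medium ranked below, whose adjusted p with limma was 0.093 at the settings used here.

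The overdispersed Poisson procedure of the study's methods was applied to the medium in the same way. It takes the spread of a gene from a curve through genes of similar mean, not from the gene itself, and is called the two-step test here. It passed 214 genes (1.98% of those tested), 33 of them with opposite directions in the 2 populations. The other 181 genes (1.67%) had the same direction, 104 higher on natural medium (0.961%) and 77 higher on cornmeal medium (0.711%). Since the rule uses this contrast, nothing is read from the share. Of the 181 genes, 176 had an unadjusted p under 0.05 with limma, against 6.48% of the 10825 genes. Both tests use the same contrast in the same libraries, and the 181 were kept for equal direction. Nothing is read from this count either. When the curve was corrected for the downward bias of averaging dispersions on a log scale, an alternative chosen after seeing the data, 74 genes passed, 45 higher on natural medium and 29 higher on cornmeal medium.

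Single libraries moved the count of the two-step test. Without the Gotheron cornmeal library 114 genes passed in the Mayotte pair that was left, and without the Gotheron natural library 105 did. Without the Mayotte cornmeal library 384 genes passed in the Gotheron pair, and without the Mayotte natural library, the one from the contaminated medium, 507 did. In these fits of the Gotheron pair the larger number was on the cornmeal side, at 204 against 180 and at 266 against 241. Of the 181 genes 9 passed in all 4 of these fits, 6 higher on natural medium and 3 higher on cornmeal medium. In 7 of the 9 genes the natural libraries and the cornmeal libraries did not overlap, as in 27.3% of the 10825 genes, but the 9 were picked by the difference between the media and nothing is read from this count.

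**Figure D3:**
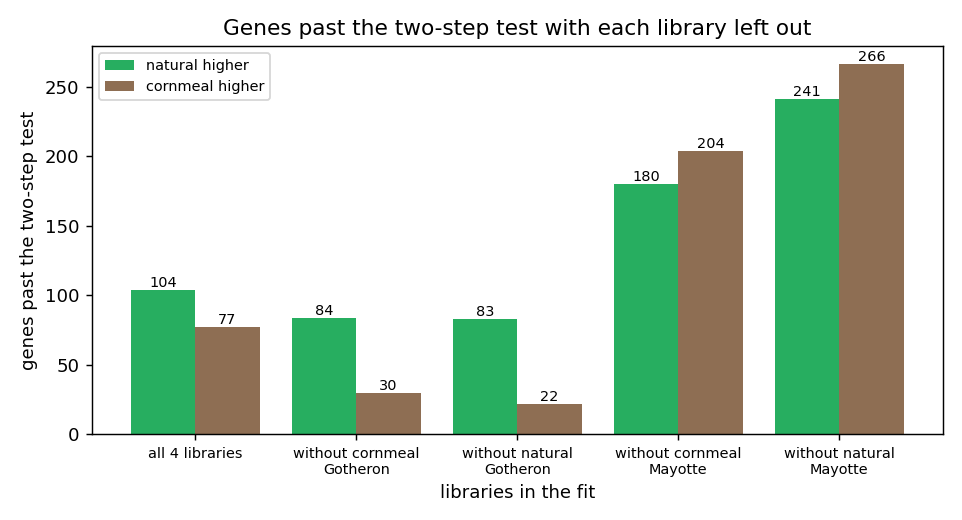
Number of genes past the two-step test (y axis) with all 4 libraries and with each library left out (x axis), higher on natural medium in green and higher on cornmeal medium in brown. The direction was required in both populations with 4 libraries, and only the complete pair carries the medium with 3. The count was 104 and 77 with all libraries, and fewest genes, 83 and 22, passed without the Gotheron natural library.

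Genes were ranked by the smaller of their absolute log2 differences in the 2 populations, so that a gene leads only if both populations show the difference. The first gene higher on natural medium was FBgn0014865. Its normalised count on cornmeal medium was 160 in Gotheron and 195 in Mayotte, and on natural medium 658 in Gotheron and 8985 in Mayotte. Both natural libraries lay above both cornmeal libraries, and the Mayotte natural library stood far above the other 3. That library came from the medium contaminated by bacteria, and an effect of the bacteria on this gene was not tested. The ratio of natural to cornmeal was 4.11 in Gotheron (95% exact binomial interval 3.45 to 4.92) and 46.0 in Mayotte (39.9 to 53.4). All such intervals cover counting error only, and in Gotheron they rest on reads of a natural library whose factor is too close to 1 for a check of the values to accept them as recovered. The limma log2 difference was 3.77 (standard error 0.65, adjusted p = 0.45), and the adjusted p of the two-step test was 3.6e-54. That test took a dispersion of 41.7 from the curve, whereas the gene's own dispersion around 1 mean of the 4 libraries was 7499.5. A gene's own dispersion includes the difference between the media, so it cannot show alone how far replicates would vary. The two-step test of the Gotheron pair passed this gene without the Mayotte natural library, but not without the Mayotte cornmeal library. The Mayotte library that stays in such a fit enters through the mean and the curve. In fits of the medium alone, the limma log2 difference was 1.89 without the Mayotte natural library and 5.66 without the Gotheron natural library.

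FBgn0188694 was second. On cornmeal medium it had 108 in Gotheron and 102 in Mayotte, and on natural medium 488 in Gotheron and 349 in Mayotte. Here the 2 cornmeal libraries were close to each other, the natural libraries lay further apart, and the media did not overlap. The ratio was 4.51 in Gotheron (interval 3.65 to 5.61) and 3.41 in Mayotte (2.73 to 4.30). Its limma log2 difference of 1.96 (standard error 0.18) had the smallest adjusted p of all genes, 0.080, with a range of 0.015 (minimum mean of 5) to 0.9997 (medium alone, without the Gotheron cornmeal library) over the limma alternatives. The adjusted p of the two-step test was 1.6e-17, and the gene passed that test with each library left out. The gene's own dispersion was 137 against 4.62 on the curve.

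The ranks after these 2 held genes of very different level. In the third gene, cornmeal against natural medium gave 740 and 2115 in Gotheron and 58.3 and 257 in Mayotte. The media overlapped in this gene, since its level in Gotheron was higher than in Mayotte on either food, with a ratio of 2.85 in Gotheron and 4.35 in Mayotte. The tenth was the most abundant of the first 12, with 3642 and 7531 in Gotheron and 1765 and 3740 in Mayotte, a ratio close to 2.1 in both. Across the first 12 genes higher on natural medium, the ratio in the population of the smaller response, after adding 1 to each value, ran from 2.05 to 4.09, and the mean normalised count from 28.1 to 4170. In 7 of the 12 that mean was under 100. All 12 passed the two-step test, which passed 1.98% of the 10825 genes, and none passed limma. In 11 of them the media did not overlap, against 27.3% of all genes. The 12 were ranked by the same difference, so that both counts largely follow from the ranking. The larger response was in Mayotte in 6 of the 12.

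Of the genes higher on cornmeal medium, FBgn0033592 came first. It had 28.4 in Gotheron and 69.5 in Mayotte on cornmeal medium, against 9.97 in Gotheron and 2.91 in Mayotte on natural medium. The media did not overlap, but the Mayotte natural value rests on 3 reads and the Gotheron natural value on 10. The ratio of cornmeal to natural was 2.84 in Gotheron (interval 1.34 to 6.56) and 23.9 in Mayotte (7.84 to 119). The limma log2 difference was -2.80 (standard error 0.65, adjusted p = 0.56), and the two-step adjusted p was 4.1e-09. It was 0.095 without the Mayotte cornmeal library and 0.16 without the Mayotte natural library. With all libraries the gene's own dispersion was 32.3 against 1.61 on the curve. The limma log2 difference lay between -3.54 and -2.05 in the fits that left out a library.

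FBgn0034053 was second on this side. On cornmeal medium it had 55.7 in Gotheron and 36.8 in Mayotte, and on natural medium 25.9 in Gotheron and 14.5 in Mayotte. Each population had the lower value on fruit, and the lowest cornmeal value was above the highest natural one. The ratio of cornmeal to natural was 2.15 in Gotheron (interval 1.33 to 3.57) and 2.53 in Mayotte (1.35 to 4.98). The limma log2 difference was -1.18 (standard error 0.32, adjusted p = 0.65) and the two-step adjusted p 0.027. The two-step call was lost with any single library left out (0.11 to 0.32), and with the corrected curve (0.21). With all libraries the gene's own dispersion was 9.22 against 1.69 on the uncorrected curve.

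**Figure D4:**
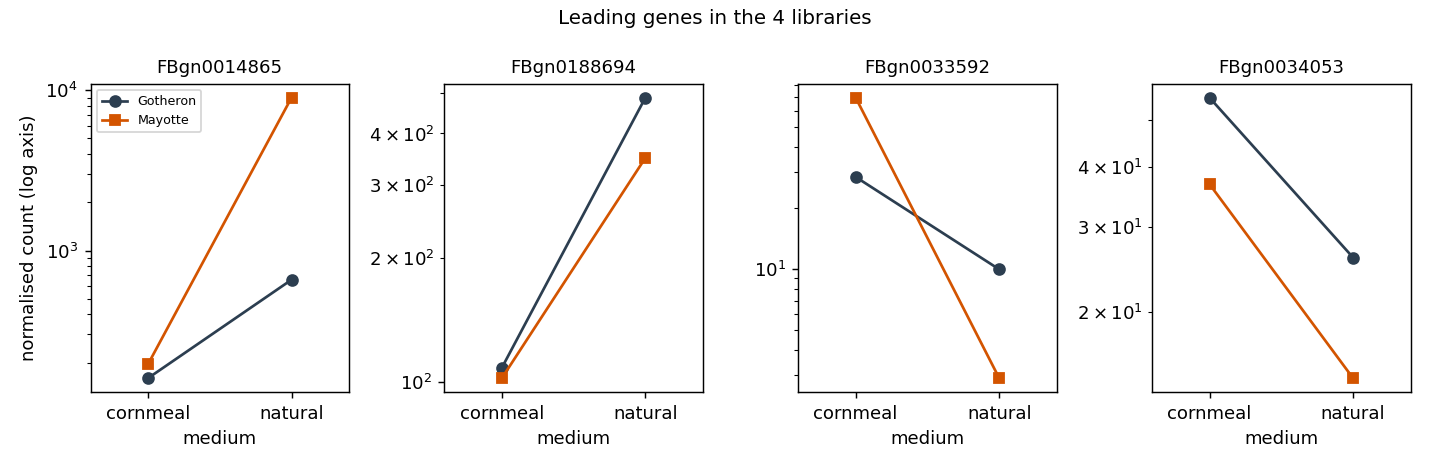
Normalised count (y axis, log scale) on cornmeal and natural medium (x axis) of the first 2 genes higher on natural medium and the first 2 higher on cornmeal medium. Each point is 1 library, circles for Gotheron and squares for Mayotte, with a line joining the libraries of a population. The media do not overlap in any of the 4 genes. FBgn0014865 reaches 8985 in the Mayotte natural library.

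The genes higher on cornmeal medium were led by smaller ratios than those higher on natural medium. Across the first 12 on the cornmeal side, the ratio in the population of the smaller response, after adding 1 to each value, ran from 1.84 to 2.68, with means from 20.4 to 836, and 8 had a mean under 100. Of these 12, 8 passed the two-step test, which passed 1.98% of the 10825 genes, and none passed limma. The genes were again ranked by the difference that is tested, so that the count largely follows from the ranking. The ninth had nearly the same values in both populations, at 940 and 938 on cornmeal medium and 508 and 501 on natural medium in Gotheron and Mayotte respectively. The sixth, at 576 and 587 against 268 and 303, was much alike. These 2 genes and the fifth, which had 1476 and 996 on cornmeal medium and 377 and 495 on natural medium, were the 3 on this side that passed the two-step test with each library left out.

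Among the 181 genes past the two-step test, the response was larger in Gotheron than in Mayotte for 64 of the 104 higher on natural medium and for 57 of the 77 higher on cornmeal medium. The median ratio of natural to cornmeal was 2.02 in Gotheron and 1.68 in Mayotte on the first side, and the median ratio of cornmeal to natural was 2.07 and 1.45 on the second. As a group the 104 genes took 0.703% of all counts on cornmeal medium and 1.33% on natural medium in Gotheron, and 0.509% and 1.19% in Mayotte. The 77 genes took 0.910% on cornmeal and 0.457% on natural medium in Gotheron, and 0.711% and 0.471% in Mayotte. The genes that passed therefore made up a small part of the transcriptome on either food. These values describe the genes that the test picked, and no test was run on them. In 18 of the 181 genes the size of the response also differed between the populations in a test of the interaction of population and medium, which 0.721% of the 10825 genes passed. Both tests use the same dispersion curve, and the 78 genes past the interaction became 140 under TMM scaling and 28 with the corrected curve.

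Among the genes that passed, a larger share than of all genes had a difference of over 1 on the log2 scale between the populations. The population comparison uses the same 4 libraries, so its values are set beside those of the medium without a test. The absolute log2 difference between Gotheron and Mayotte, each as the mean of its libraries, was over 1 in 30 of the 104 genes higher on natural medium (28.8%) and in 18 of the 77 higher on cornmeal medium (23.4%), against 3.10% of the 10825 genes. Its median was 0.47 and 0.66 in these groups and 0.22 over all genes. In the 5638 genes of equal direction as a whole it was 0.22 as well. Each population mean covers both media, so a response of unequal size in the 2 populations enters this difference. In FBgn0014865 the log2 difference of Gotheron minus Mayotte was -2.03. Its cornmeal values were 160 and 195, and its Mayotte natural value was 8985. The shares can thus follow in part from how the genes were picked, and nothing is read from them. The two-step test gives genes of equal mean the same spread, and the part of genes that vary more than their curve in these counts was not tested.

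The share of genes of equal direction was lowest among the most abundant genes. It was 52.3% of the 3263 genes with a mean from 20 to 100, 52.9% of the 6010 from 100 to 1000, 49.6% of the 1378 from 1000 to 10000 and 38.5% of the 174 above. The two-step test passed 1.20% of the genes in the lowest class, 1.83% and 2.25% in the next 2, and 0.575% in the highest, which is 1 gene. In the lowest class 29 of the 39 genes that passed were higher on natural medium, whereas from 100 to 1000 the numbers were 57 and 53, and from 1000 to 10000 they were 17 and 14. The correlation of the difference in Gotheron with that in Mayotte was 0.108, 0.0999 and 0.0895 across the genes of the first 3 classes, and -0.249 across the 174 most abundant genes, where the pairs share no library.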

How the data were processed

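Each population and medium has 1 library. The cornmeal and natural groups each hold Gotheron as replicate 1 and Mayotte as replicate 2, paired by population. The authors trimmed 3′ cDNA reads of 34 bases with seqclean, mapped 32-mers with ELAND, allowing 2 mismatches, to the D. melanogaster and then the D. simulans genome. The processing notes of the submitters also name CASAVA. The sources used here do not give versions or builds. The authors deposited a signal, normalised counts per gene, with equal library totals. In units of the lowest value above 0 in each library, 100% of the values were whole within 0.01. A check of the values accepted these as reads in 3 libraries and not in the natural library of Gotheron, whose factor is close to 1.

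The main test was limma 3.58.1 in R 4.3.3 on log2(normalised count + 1) with a trended prior variance and the population as block, for genes whose mean reached 20. The two-step test took the Pearson dispersion around 1 mean of the 4 libraries, smoothed its log on the log mean (loess, span 0.75, degree 2), and applied a likelihood ratio test of the medium, with population as a term. Both were run on simulated data in which each gene had the spread of a curve through genes of similar mean. Genes that vary more than their curve were not covered by it. P-values were adjusted over the 10825 genes by the Benjamini-Hochberg method at 0.05. They measure the spread between these libraries only. The alternatives were other scalings, pseudocounts, filters, prior variances, dispersion estimates, a fit without the block, and each library left out. Tests on recovered reads with edgeR 4.0.16 and DESeq2 1.42.0 used the 3 accepted libraries.

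The rule for named genes takes the first 12 in each direction by the smaller of the 2 absolute log2 differences. Identifiers are printed for 2 in each direction, because the RefSeq table of assembly Prin_Dsim_3.1 held none of them. Gene lists by symbol were therefore not used, and sequences are not shown. The genes and the tests were chosen with earlier results of these data known.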

Additional observations from a re-analysis of the deposited data

Results flagged for a closer look

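In 18 of the 181 genes past the two-step test in the same direction in both populations, the size of the difference between the media also differed between Gotheron and Mayotte in a test of the interaction of population and medium at the same dispersion (Benjamini-Hochberg adjusted threshold of 0.05). They were 15 genes higher on natural medium, 9 of them with the larger response in Mayotte, and 3 higher on cornmeal medium. The share was 9.94%, against 0.721% of the 10825 genes, where 78 passed. That number was 140 under TMM scaling, 121 with library totals taken without the top 10 genes and 28 with the corrected curve, and the 18 were not counted again under these settings. The 181 genes were picked with the same dispersion curve, so that the shares are not independent of that choice. With 1 library for each population and medium, the interaction cannot be told apart from a single unusual library.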

How the results depend on the processing

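The count of genes of equal direction stayed within 1.5 times of 5638 under both other scalings and both other minimum means. Its split between natural and cornmeal medium was less uneven under other scalings, at 2534 and 3049 with TMM against 2329 and 3309 as deposited. With limma, 0 genes passed and 702 had an unadjusted p under 0.05. The count was 2 under TMM scaling, quantile normalization, a minimum mean of 5 and robust empirical Bayes, and 0 under the other settings with 4 libraries, of which no replicate block, that is no pairing by population, left 243 genes with an unadjusted p under 0.05. Leaving out a library leaves no residual degrees of freedom beside the block. Limma was then fitted to the medium alone, with the lone sample assumed to vary like the others. Genes passed only without the Gotheron natural library, where the lone natural library was that of the contaminated Mayotte medium. On the recovered reads of 3 libraries, edgeR called 4 genes and DESeq2 17, also without a block.

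The two-step count of 181 became 674 with the dispersion around the 2 population means and 1731 around the additive fit, where the cornmeal side was larger (980 against 751). With the curve corrected for the mean of the log these were 158 and 197, and the uncorrected 181 became 74. It ran from 105 to 507 with a library left out. A block changes nothing in this test, because the medium term of the additive Poisson fit depends on the medium totals alone, and the count was 181 either way. The count of the interaction, 78, was 140 under TMM scaling, 121 with library totals taken without the top 10 genes, and 28 with the corrected curve. These interaction settings and the corrected curves were chosen after seeing the data. The cause of these changes was not tested. No direction of the 4 genes given by identifier reversed under any setting run for them. Genes with few reads carry a wide counting error at this depth.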
